A study of Mus musculus with 6 samples.

Results

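A group of 10 genes known to respond to fasting and to glucocorticoid hormones was examined in aged WT and SELENOW KO mice, in TA muscle (tibialis anterior, a fast muscle of the shin): Fkbp5, Tsc22d3, Cebpd, Per1, Ddit4, Pdk4, Ucp3, Angptl4, Mt1 and Mt2. They were taken by symbol from the 55416 genes of the count table, all 10 were found, and all 10 were among the 15623 genes that passed the filter on low counts. RNA sequencing covered 3 WT and 3 KO male C57BL/6N mice, labelled as 24 months old after natural aging. The KO mice carry a constitutive deletion of exon 4 of Selenow, made with CRISPR and a pair of guide RNAs, so the gene is altered in every tissue and at every age. The labels state free access to food and water; whether food was present just before sampling, and the hour of sampling, are not given in the sources used here. Library depth was 25351976, 29111213 and 25398186 counts for WT replicates 1 to 3, against 27815342, 27345022 and 27637175 counts for KO replicates 1 to 3.

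Glucocorticoids are adrenal hormones that rise in fasting, in stress and before the active phase of the day. They bind the glucocorticoid receptor, which enters the nucleus and switches on genes that slow growth, turn muscle from glucose toward fat as fuel and release amino acids. Fatty acids freed in fasting act in parallel through PPAR receptors, and the metallothioneins answer both to the hormone and to zinc.

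The targeted gene was read first. Selenow had a level of 268, 245 and 219 CPM, counts relative to the library's total after TMM scaling, in WT replicates 1 to 3 and of 193, 212 and 210 in KO replicates 1 to 3. All KO libraries were below all WT libraries, and the log2 fold change, KO against WT throughout, was -0.25 (SE, standard error, 0.14; edgeR adjusted p = 0.604). Counts are per gene, so the loss of exon 4 was not measured. The study reported loss of the SELENOW protein in KO TA muscle by Western blot, and protein was not measured here. Fibre genes were read beside the TA label. Myh4, the myosin heavy chain of the fastest fibres, had the highest CPM of the 10 muscle markers in the list, without correction for gene length. The 10 markers summed to between 85993 and 111666 CPM in each library. These values cannot tell TA from another fast muscle, as Myh4 marks a fibre type and not 1 muscle.

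None of the 10 genes was called different between WT and KO. A gene counted as called when edgeR's quasi-likelihood test gave a p below 0.05 before adjustment and the fold was over 1.5 or under 0.7, a rule that 5.35% of the tested genes met (836 of 15623). With 1 library left out the same rule was met by 5.05%, 6.21% and 5.91% of tested genes without WT replicates 1 to 3 and by 6.66%, 5.65% and 5.18% without KO replicates 1 to 3, and with DESeq2 by 4.94% (771 genes). At an unadjusted p under 0.05 with any fold change the count was also 0 of 10 with edgeR and 0 of 10 with DESeq2. By the call rule the count became 1 (Fkbp5) without WT replicate 1. It became 2 (Mt1 and Mt2) with robust estimation of the spread turned off, beside 5.88% of all tested genes (919). It was also 2 (Mt1 and Mt2) with the replicate number as a block, beside 5.7% (890). With adjustment over all tested genes, 0 of the 10 had a p under 0.05, beside 0% of all tested genes with edgeR, where 1545 genes had an unadjusted p under 0.05, and 45 genes with DESeq2. For all tested genes, edgeR gave 242 such genes without KO replicate 2, 16 without KO replicate 1 and 2 without WT replicate 3. The values of the genotypes overlapped for all 10, while 15.4% of tested genes did not overlap. The median log2 fold change was -0.14 over the 10 genes and -0.004 over all tested genes, and 7 of the 10 were below 0 against 50.6% of tested genes. Without WT replicate 2 the median of the 10 was 0.27, and without KO replicate 2 it was 0.12, while leaving out each other library gave -0.37 to -0.26, so its sign rested on single libraries.

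**Figure D1:**
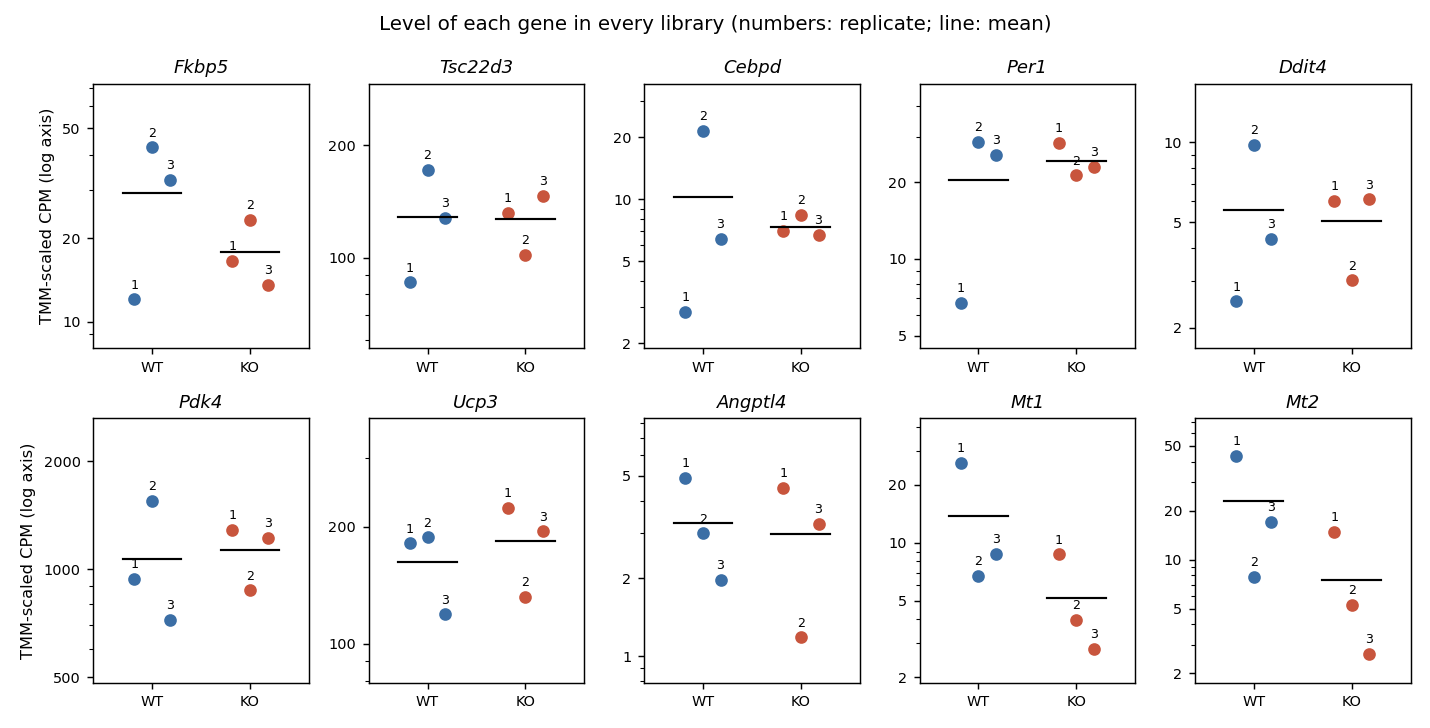
Level of each of the 10 genes in every library, as TMM-scaled CPM on a log axis, with WT in blue, KO in red, the replicate number beside each point and a line at the mean of each genotype. The genotypes overlap in every panel, and WT replicates 1 and 2 lie at opposite ends for Fkbp5, Tsc22d3, Cebpd, Per1 and Ddit4.

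Per length, as TPM (transcript share from counts and gene length), the genes covered a wide range of levels. TPM values were not TMM-scaled and serve only to order genes within a genotype, not to compare WT with KO. Pdk4 was the most abundant, at 343 ± 159 TPM in WT (SD, n = 3). Ucp3 came next at 57.2 ± 12.4 TPM in WT, then Mt2 at 39.8 ± 25.3 and Tsc22d3 at 34.2 ± 15.1 (SD, n = 3), and the intervals of mean ± SD of these neighbours overlapped. Within KO the order began with Pdk4, Ucp3 and Tsc22d3, and Angptl4 was again last. Mt1 had 11.4 ± 6.51 TPM in WT (SD, n = 3). Per1, Ddit4, Fkbp5 and Cebpd had WT means between 3.23 and 4.32 TPM and could not be ordered beyond their spread. Angptl4 had the lowest mean, 0.988 ± 0.266 TPM in WT (SD, n = 3), but its interval of mean ± SD overlapped those of Ddit4 and Cebpd. Its smallest count, 29 in KO replicate 2, has an exact Poisson 95% interval of 19.4 to 41.6, which covers counting error only.

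Among the genes induced by the hormone receptor, Fkbp5 encodes a co-chaperone that lowers the receptor's affinity for hormone and so closes a feedback loop. Its level was 12.0, 42.6 and 32.5 CPM in WT replicates 1 to 3 and 16.6, 23.4 and 13.6 CPM in KO replicates 1 to 3. WT replicates 2 and 3 were above every KO library and WT replicate 1 was below every KO library. The log2 fold change was -0.71 (SE 0.52, 95% interval -2.05 to 0.64, edgeR adjusted p = 0.709). Without WT replicate 1 it was -1.07 and past the call rule, with an adjusted p of 0.350 from edgeR, and without WT replicate 2 it was -0.32 (edgeR adjusted p = 0.883).

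Per1 encodes a repressor of the circadian clock that glucocorticoids also induce directly. It had 6.69, 28.7 and 25.7 CPM in WT replicates 1 to 3 and 28.5, 21.3 and 22.97 CPM in the KO replicates. The low value of WT replicate 1 stood apart from the other 5 libraries, which lay between 21.3 and 28.7 CPM. The log2 fold change was 0.25 (SE 0.57, edgeR adjusted p = 0.917) and turned to -0.16 without WT replicate 1, against 0.58 without WT replicate 2.

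Cebpd, a transcription factor of the C/EBP family, had 2.84, 21.4 and 6.42 CPM in WT replicates 1 to 3 and 7.01, 8.40 and 6.70 CPM in the KO replicates. WT replicates 1 and 2 were its lowest and highest libraries, 7.54-fold apart, and the KO libraries lay between them. The log2 fold change of -0.49 (SE 0.80, edgeR adjusted p = 0.880) became 0.66 without WT replicate 2 and -0.92 without WT replicate 1. In the positions of the count table, Cebpd shares 562 exonic bases with Spidr on the other strand, which had 10 to 40 counts per library, and the handling of strand is not given in the sources used here.

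Tsc22d3, which encodes the anti-inflammatory protein GILZ, had 85.8, 172 and 128 CPM in WT replicates 1 to 3 and 132, 102 and 147 CPM in the KO replicates. Ddit4, which encodes REDD1, a brake on mTORC1 and protein synthesis, had 2.51, 9.81 and 4.31 CPM in WT and 6.002, 3.02 and 6.10 CPM in KO replicates 1 to 3. For both genes the KO libraries lay between WT replicates 1 and 2. Their log2 fold changes were -0.02 and -0.15 (SEs 0.24 and 0.57), which were 0.25 and 0.56 without WT replicate 2 and -0.24 and -0.49 without WT replicate 1, with no call.

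Thus WT replicate 1 was the lowest and WT replicate 2 the highest of the 6 libraries for each of Fkbp5, Tsc22d3, Cebpd, Per1 and Ddit4. This order of the libraries was noticed after the values were seen. Within WT, replicate 1 also differed most from the others in its counts. The chi-square per degree of freedom between its counts and those of WT replicates 2 and 3 was 79.2 and 57.6. It was 25.7 between WT replicates 2 and 3 and 21.0 to 35.6 between KO libraries, and WT was not compared with KO. The mitochondrial share was 37.3% for WT replicate 1, against 29.1% and 29.8% for WT replicates 2 and 3. Whether this share or a few abundant genes set the chi-square was not tested. Of all tested genes, 3.63% were both lowest in WT replicate 1 and highest in WT replicate 2, 21.0% were lowest in WT replicate 1 and 16.0% were highest in WT replicate 2. Among 23 other glucocorticoid-induced genes, 11 had both extremes, 13 were lowest in WT replicate 1 and 14 highest in WT replicate 2. Both extremes were also held by 2 of 10 stress-response genes, 3 of 18 other clock genes and 1 of 10 muscle fibre markers. They were held by 1 of 28 other fasting genes and 0 of 9 other metal genes. Of the 10 muscle fibre markers, 5 were highest in WT replicate 2 and 4 lowest in WT replicate 1. Of 14 mTORC1 restraint genes these were 5 and 6, with both extremes in 1. Arrdc2, an arrestin-domain gene, had 4.75 CPM in WT replicate 1, 48.4 in WT replicate 2 and 22.4 to 41.5 in the other 4 libraries. Glul, the glutamine synthetase gene, had 42.1, 303 and 107 CPM in WT replicates 1 to 3 and 91.8, 176 and 154 CPM in the KO replicates. Arrdc2 and Glul were chosen after their values were seen.

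**Figure D2:**
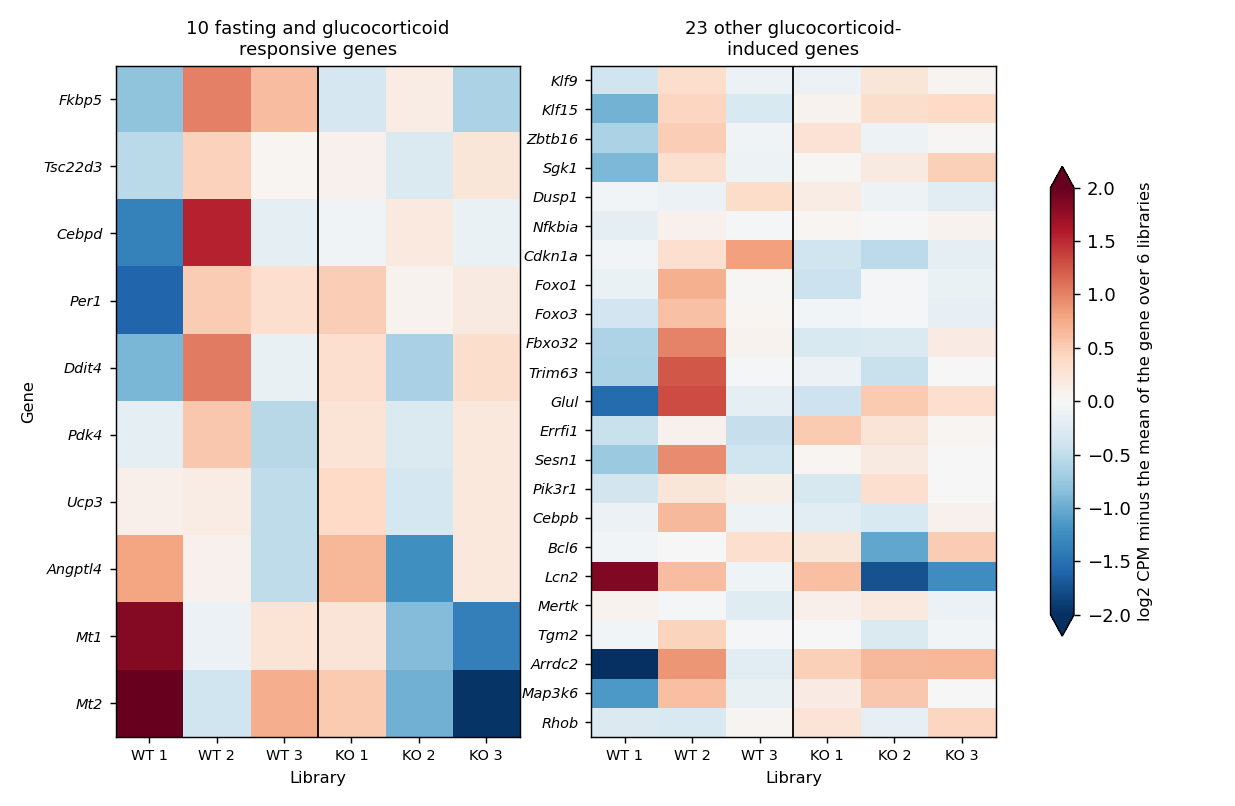
Log2 CPM of each gene minus its mean over the 6 libraries, for the 10 genes (left) and 23 other glucocorticoid-induced genes (right), with a line between WT and KO libraries and colours that saturate at 2. The column of WT replicate 1 is low and that of WT replicate 2 high for the first 5 genes on the left and for many on the right, such as Glul and Arrdc2.

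The receptor and its hormone supply showed no called gene among 13 tested of 14 listed. Nr3c1, the glucocorticoid receptor gene, had 35.6, 40.0 and 37.2 CPM in WT replicates 1 to 3 and 34.9, 40.9 and 41.0 CPM in the KO replicates, a log2 fold change of 0.05. Its libraries were close together and overlapped, and with library totals as the only scaling the value was -0.20. With single libraries left out, Nr3c1 ran from 0.01 without WT replicate 1 to 0.13 without KO replicate 1. Hsd11b1, whose enzyme regenerates active hormone inside the cell, had a log2 fold change of -0.37 (edgeR adjusted p = 0.706; -0.14 without KO replicate 2 and -0.52 without WT replicate 2), and Ptges3, the p23 co-chaperone of the receptor, -0.20 (edgeR adjusted p = 0.650; -0.13 without KO replicate 2 or WT replicate 2). With library totals as the only scaling, Hsd11b1 had -0.60 and Ptges3 -0.44, neither called.

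Of the 23 other glucocorticoid-induced genes, 1 was called, lower in KO, and their median log2 fold change was -0.06. Leaving out WT replicate 2 gave 6 called of the 23, 26.1% against 6.21% of all tested genes, and a median of 0.14. Leaving out WT replicate 1 gave 3 called, 13% against 5.05%, and a median of -0.16, and leaving out WT replicate 3, KO replicate 1 or KO replicate 3 gave 2 called, 8.7% against 5.18% to 6.66%. Cdkn1a, the cell cycle inhibitor p21, had 9.41, 12.4 and 17.4 CPM in WT replicates 1 to 3 and 7.45, 6.77 and 8.60 CPM in the KO replicates. Every WT library was above every KO library. Its log2 fold change was -0.78 (SE 0.21, edgeR adjusted p = 0.301), and -0.52 without WT replicate 3, still called. Klf15 and Klf9, transcription factors induced by the receptor, had log2 fold changes of 0.44 and 0.09, and Foxo1, a driver of atrophy genes, of -0.44 (edgeR adjusted p = 0.552), none of them called. Klf15 was called without WT replicate 2, at 0.88, but had 0.17 without WT replicate 1. Foxo1 was called without WT replicate 1, at -0.60, and with library totals as the only scaling, at -0.69, but had -0.13 without WT replicate 2. Klf9 ran from -0.06 without WT replicate 1 to 0.33 without WT replicate 2, and had -0.16 with library totals as the only scaling.

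The 3 genes of fuel choice are Pdk4, which shuts pyruvate out of oxidation, Ucp3, a mitochondrial carrier that rises with fat supply, and Angptl4, a secreted inhibitor of lipoprotein lipase. Pdk4 had 938, 1548 and 724 CPM in WT replicates 1 to 3 and 1288, 873 and 1225 CPM in the KO replicates. Ucp3 had 181, 188 and 119 CPM in WT and 223, 132 and 194 CPM in KO replicates 1 to 3. Angptl4 had 4.91, 2.99 and 1.98 CPM in WT and 4.47, 1.18 and 3.25 CPM in KO replicates 1 to 3. WT replicate 3 and KO replicate 2 were the lower libraries for all 3 genes, and the genotypes overlapped. The log2 fold changes were 0.08, 0.17 and -0.14 (SEs 0.27, 0.23 and 0.52; adjusted p = 0.949, 0.831 and 0.953 from edgeR). Leaving out WT replicate 3 gave -0.14 for Pdk4 and -0.01 for Ucp3, and leaving out WT replicate 2 gave 0.44 for Pdk4 and 0.29 for Ucp3. Angptl4 had 0.26 without WT replicate 1 and -0.55 without KO replicate 1, and none of these values was called.

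Among 28 tested of 30 other fasting and PPAR-regulated genes, 1 was called, higher in KO, and the median log2 fold change was 0.05, which turned to -0.06 without KO replicate 3 and -0.05 without WT replicate 2. Called were 0 without WT replicate 3 and 2 of 29 tested without KO replicate 1 or WT replicate 2, 6.9% against 6.66% and 6.21% of all tested genes. Pdp2, a phosphatase that reactivates pyruvate dehydrogenase and so opposes Pdk4, had 2.56, 3.18 and 1.88 CPM in WT replicates 1 to 3 and 2.90, 4.40 and 6.17 CPM in the KO replicates. Only KO replicate 1 fell within the WT values. The log2 fold change was 0.82 (SE 0.29, edgeR adjusted p = 0.40), and the call was lost without KO replicate 3, at 0.53, without WT replicate 3, at 0.64, and with library totals as the only scaling, at 0.60. Ppard, Ppargc1a and Cpt1b, a fatty acid receptor, a mitochondrial coactivator and the carnitine transferase of muscle, had log2 fold changes of 0.22, 0.06 and 0.19, none called. These 3 signs turned negative with library totals as the only scaling, at -0.03, -0.20 and -0.04, a scaling that moved the median of all tested genes by -0.25. With single libraries left out, Ppard ran from 0.12 without WT replicate 1 to 0.44 without WT replicate 2, Ppargc1a from -0.05 without WT replicate 2 to 0.17 without WT replicate 3, and Cpt1b from 0.08 without WT replicate 3 to 0.34 without WT replicate 1.

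Mt1 and Mt2 encode small cysteine-rich proteins that bind zinc and copper, and they neighbour each other on chromosome 8. With all 6 libraries they had the largest differences of the 10 and ranked the libraries in the same order, so their promoters are shown. Without WT replicate 1, Fkbp5 (-1.07) and Cebpd (-0.92) had larger differences than Mt1 (-0.59) and Mt2 (-0.72). RefSeq windows of 300 bases around a gene's start, in GRCm38.p6, were found for 8 of the 10 genes and not for Cebpd and Angptl4. Capitals mark the core of the metal response element bound by MTF1, searched as TGCGCNC or TGCACNC on both strands. Both windows are on the plus strand, at chr8:94172368-94172667 for Mt2 and chr8:94178839-94179138 for Mt1, with 4 and 3 matches. The Ddit4 window and 1 of 2 windows of Per1 hold 1 match each, and the other windows of the 8 genes hold none. Of 32851 promoter windows of this length, 25.7% hold at least 1 match, and a match is no measure of binding.
Mt2: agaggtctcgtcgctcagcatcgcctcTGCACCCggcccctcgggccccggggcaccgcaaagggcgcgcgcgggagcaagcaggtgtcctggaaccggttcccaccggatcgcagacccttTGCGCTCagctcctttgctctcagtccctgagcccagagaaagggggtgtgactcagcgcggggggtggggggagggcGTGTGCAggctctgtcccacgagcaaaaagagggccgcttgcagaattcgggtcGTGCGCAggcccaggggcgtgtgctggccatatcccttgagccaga
Mt1: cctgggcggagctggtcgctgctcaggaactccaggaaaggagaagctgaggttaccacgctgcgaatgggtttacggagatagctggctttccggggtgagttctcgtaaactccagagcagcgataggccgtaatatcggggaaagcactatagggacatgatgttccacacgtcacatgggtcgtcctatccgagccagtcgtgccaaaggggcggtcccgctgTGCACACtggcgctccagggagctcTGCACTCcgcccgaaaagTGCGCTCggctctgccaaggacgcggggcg

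Mt1 had 26.0, 6.69 and 8.76 CPM in WT replicates 1 to 3 and 8.70, 3.95 and 2.81 CPM in KO replicates 1 to 3. Mt2 had 43.5, 7.84 and 17.1 CPM in WT and 14.7, 5.26 and 2.62 CPM in the same order in KO. WT replicate 1 was the highest library for both, KO replicates 2 and 3 were below every WT library, and KO replicate 1 lay within the WT values. The log2 fold changes were -1.42 for Mt1 (SE 0.77, 95% interval -3.46 to 0.63, edgeR adjusted p = 0.634) and -1.59 for Mt2 (SE 0.98, 95% interval -4.23 to 1.04, edgeR adjusted p = 0.666). Neither was called, and the values were -0.59 and -0.72 without WT replicate 1 and -2.02 and -2.53 without KO replicate 1. With robust estimation of the spread turned off, both passed the call rule (adjusted p = 0.433 and 0.461 from edgeR). Both also passed it with the replicate number as a block, at -1.34 and -1.59 (adjusted p = 0.0661 and 0.456 from edgeR). No pairing of the mice by replicate number is stated in the sources used here.

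The reads of Mt2 cannot be assigned to it alone. Gm45774, a gene on the other strand, shares 432 exonic bases with Mt2 in the count table and had 1068, 254 and 514 counts in WT replicates 1 to 3 and 366, 128 and 70 in the KO replicates, against 1072, 252 and 518 and 366, 129 and 70 for Mt2. The counts differed by at most 4 in any library, so the pair cannot be told apart and is 1 measurement. Mt1 shares no exonic bases with another gene in the table. None of the 9 tested of 10 other metal and zinc handling genes was called. Mtf1, the zinc-sensing factor, and Slc30a1, a zinc exporter that it induces, had log2 fold changes of 0.09 and -0.15. Mtf1 turned to -0.0072 without KO replicate 2 and to -0.15 with library totals as the only scaling, and Slc30a1 ran from -0.29 without KO replicate 1 to -0.04 without KO replicate 3. Slc39a14, a zinc importer, had -0.28 (edgeR adjusted p = 0.683), which among the alternatives run was called with library totals as the only scaling, at -0.54, and ran from -0.51 without KO replicate 1 to -0.13 without WT replicate 2.

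**Figure D3:**
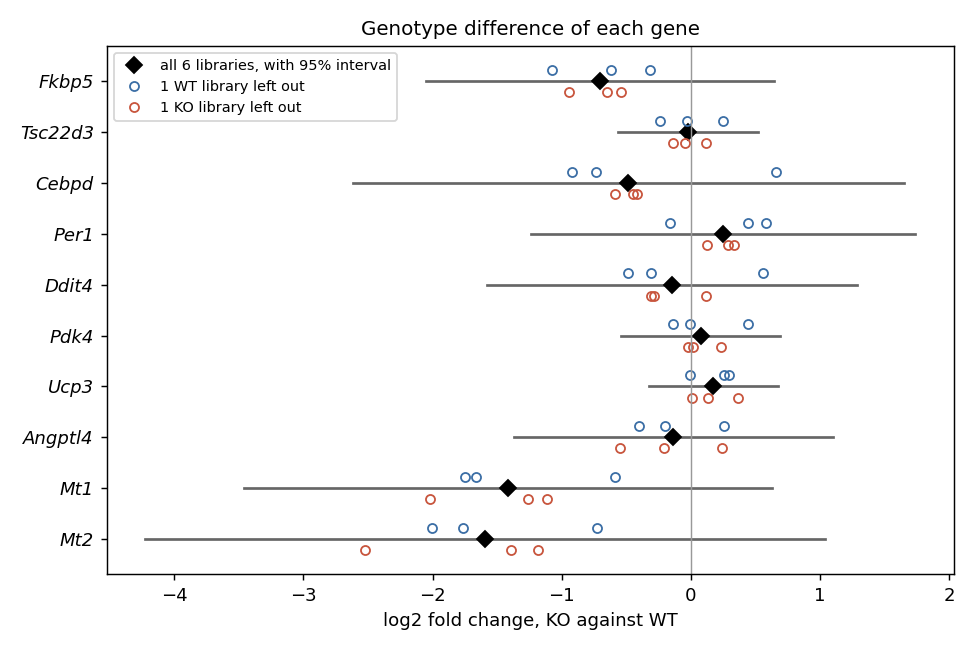
Log2 fold change of KO against WT for each of the 10 genes, with all 6 libraries and its 95% interval in black and with 1 WT (blue) or 1 KO (red) library left out as open circles. Every interval includes 0. Fkbp5, Mt1 and Mt2 stay below 0 in all 6 leave-outs, and the other 7 genes have circles on both sides of 0.

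The clock list held 1 called gene of 18, 2 without KO replicate 3 (11.1% against 5.18% of all tested genes) and 0 without KO replicate 1, KO replicate 2 or WT replicate 2. Nfil3, a repressor at D-box elements, had 6.61, 8.53 and 6.16 CPM in WT replicates 1 to 3 and 3.26, 4.97 and 6.40 CPM in the KO replicates. KO replicate 3 overlapped the WT values. Its log2 fold change was -0.54 (SE 0.23, edgeR adjusted p = 0.488), and the call was lost without KO replicate 1, KO replicate 2, WT replicate 1 or WT replicate 2, at -0.32, -0.55, -0.59 and -0.38. Nr1d1, Dbp and Bmal1 (Arntl in the annotation), a repressor, an output gene and an activator of the clock, had log2 fold changes of 0.04, 0.08 and -0.07, none called. None of these 3 signs held with each library left out: Nr1d1 ran from -0.09 without WT replicate 3 to 0.20 without WT replicate 1, Dbp from -0.07 without KO replicate 1 to 0.32 without WT replicate 1, and Bmal1 from -0.39 without KO replicate 3 to 0.15 without KO replicate 1. With library totals as the only scaling, Nr1d1 and Dbp turned to -0.18 and -0.15. Dbp had 24.8 CPM in WT replicate 1 and 15.4 in WT replicate 2, the opposite order to Per1. Of the 18 clock genes, 6 were lowest and 2 highest in WT replicate 1. Like Per1, 3 were both lowest in WT replicate 1 and highest in WT replicate 2, 16.7% against 3.63% of all tested genes.

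Per1 and Fkbp5 each have a promoter window with an E-box, CACGTG, the element bound by CLOCK and BMAL1, marked in capitals. The second window of Per1, the 3 windows of Tsc22d3 and those of Ddit4, Pdk4, Ucp3, Mt1 and Mt2 hold none. The Per1 window, 1 of 2 for this gene, is on the plus strand at chr11:69098699-69098998 and the Fkbp5 window on the minus strand at chr17:28486100-28486399, both RefSeq, GRCm38.p6. The E-box reads the same on both strands, and 7.15% of the 32851 windows hold it. The core hexamer of the glucocorticoid response element, AGAACA on either strand, was found in 1 of 3 windows of Tsc22d3, in none of the other windows of the 8 genes, and in 19.0% of all windows. This hexamer followed after 3 bases by its reverse complement, an exact form of the full element, was in none of the windows of the 8 genes and in 3 of the 32851. Inexact forms and sequence outside the windows were not searched, so these counts do not show that a gene lacks receptor sites.
Per1: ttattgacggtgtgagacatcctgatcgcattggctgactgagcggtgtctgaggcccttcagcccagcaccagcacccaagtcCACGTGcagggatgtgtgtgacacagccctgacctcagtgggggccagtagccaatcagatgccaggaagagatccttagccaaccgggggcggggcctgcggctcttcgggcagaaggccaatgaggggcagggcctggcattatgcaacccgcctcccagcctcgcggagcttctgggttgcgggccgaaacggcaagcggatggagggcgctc
Fkbp5: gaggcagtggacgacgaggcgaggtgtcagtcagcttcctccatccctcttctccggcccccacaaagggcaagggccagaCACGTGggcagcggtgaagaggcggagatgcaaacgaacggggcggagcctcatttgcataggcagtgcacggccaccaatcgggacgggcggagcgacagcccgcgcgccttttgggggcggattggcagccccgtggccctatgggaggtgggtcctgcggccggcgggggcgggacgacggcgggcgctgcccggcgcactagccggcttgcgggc

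None of the 14 other genes that restrain mTORC1 was called. Their median log2 fold change was 0.12, with 10 above 0, against 7712 of 15623 tested genes. With library totals as the only scaling it was -0.13, with 3 above 0. Castor1, an arginine sensor, had the smallest p of the 14, with a log2 fold change of 0.69 (edgeR adjusted p = 0.610) at levels under 1 CPM in every library. Its genotypes did not overlap, at 9 to 26 counts per library. It ran from 0.49 without KO replicate 3 to 0.81 without KO replicate 1. Of 10 stress-response genes of the ATF4 and hypoxia kind, 1 was called, 2 without WT replicate 2 or WT replicate 3 (20% against 6.21% and 5.91% of all tested genes) and 0 without KO replicate 2, KO replicate 3 or WT replicate 1. Egln3, an oxygen-sensing prolyl hydroxylase, had 14.6, 15.9 and 14.0 CPM in WT replicates 1 to 3 and 13.9, 10.03 and 7.18 CPM in the KO replicates. The genotypes did not overlap, though KO replicate 1 came close to WT replicate 3. The log2 fold change was -0.52 (SE 0.20, edgeR adjusted p = 0.456), and the call was lost without KO replicate 2, KO replicate 3, WT replicate 1 or WT replicate 2, at -0.49, -0.31, -0.53 and -0.46. Without KO replicate 1 it was -0.78 and still called. In all, 4 of the 115 tested genes in the 7 lists were called, 3.48% against 5.35% of all tested genes. Without WT replicate 2 it was 10 of 116, 8.62% against 6.21%, and without KO replicate 2 it was 2 of 116, 1.72% against 5.65%.

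For 7 of the 10 genes the spread between libraries was larger within WT than within KO. The SD of log2 CPM had a median over the 10 genes of 0.97 in WT and 0.39 in KO, against 0.22 and 0.21 over all tested genes, and this difference was not tested. Cebpd had SDs of 1.46 in WT and 0.17 in KO, and Per1 of 1.17 and 0.22, while Mt2 was as spread in KO (1.25) as in WT (1.23). The pooled SD of log2 CPM within genotypes had a median of 0.82 over the 10 genes and 0.24 over all tested genes. Mt2 had the largest SD, 1.24, above 98.5% of tested genes, followed by Cebpd at 1.04 and Mt1 at 0.94. Ucp3 had the smallest, 0.38, above 73.9% of tested genes. With single libraries left out, which was added after seeing the data, the pooled SD of Per1 was 0.19 and that of Fkbp5 0.36 without WT replicate 1, and that of Cebpd 0.50 without WT replicate 2. Over the 10 genes the median was 0.59 without WT replicate 1 and 0.62 without WT replicate 2.

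**Figure D4:**
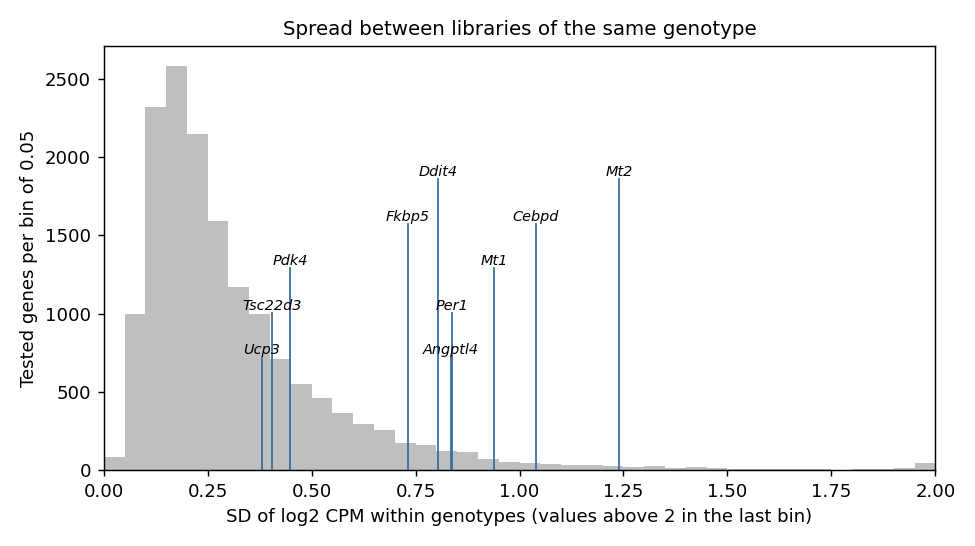
Distribution over all tested genes of the pooled SD of log2 CPM within genotypes (grey, genes per bin), with a line at the value of each of the 10 genes. Ucp3, Tsc22d3 and Pdk4 lie between 0.38 and 0.45 and the other 7 genes at 0.73 or above.

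The mean profile of the 10 genes, each centred on its own mean, was -0.06, 0.48 and 0.01 log2 units in WT replicates 1 to 3 and 0.26, -0.42 and -0.27 in the KO replicates. The 5 genes most like it over the 6 libraries were Tgif1, Myf6, Slc39a14, Tacc2 and Utp11, with root mean square differences of 0.07, 0.08, 0.09, 0.10 and 0.10 log2 units. The profile mixes genes with opposite values in WT replicate 1, so it is an average over unlike patterns.

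In bulk muscle, fewer cells of a type and less RNA per cell cannot be told apart, so markers of other cells were read in the same libraries. The 12 macrophage and leukocyte markers, Csf1r the most abundant, summed to 21.3, 17.5 and 45.7 CPM in WT replicates 1 to 3 and 24.7, 16.8 and 13.8 in the KO replicates, and 2 of the 11 tested, 18.2% against 5.35% of all tested genes, were called, lower in KO (Csf1r and S100a9). Of these 11, 9 had a log2 fold change below 0, with a median of -1.09, which was -0.22 without WT replicate 3 and -0.77 without KO replicate 3. The count of called macrophage markers was 6 without WT replicate 2 (54.5% against 6.21% of all tested genes), 3 without KO replicate 1 (27.3% against 6.66%), 1 with any other library left out (9.09% against 5.05% to 5.91%) and 5 with DESeq2 (45.5% against 4.94%). The 8 fibroblast markers, led by Dcn, summed to 158.8, 89.0 and 282.9 CPM in WT and 154.5, 74.9 and 117.1 in KO, with none called. Of these 8, 7 were below 0, with a median log2 fold change of -0.48, and without WT replicate 3 this was 4 of 8, with a median of -0.12. The fibroblast median was -0.81 without WT replicate 2 and -0.31 without KO replicate 2. Both lists were highest in WT replicate 3, the lowest library for Pdk4 and Ucp3 and the highest for Cdkn1a. The 8 endothelial markers, led by Cdh5, summed to between 64.6 CPM in WT replicate 3 and 114.6 in KO replicate 2. None was called, but all 8 had a log2 fold change above 0, with a median of 0.29, and Cdh5 had 0.50 with no overlap between genotypes (edgeR adjusted p = 0.340). Those above 0 were 5 of 8 without WT replicate 3 and with library totals only, with medians of 0.12 and 0.05, and 6 of 8 without KO replicate 2 and without WT replicate 2, with medians of 0.18 and 0.23. Without WT replicate 1 the endothelial median was 0.39 with 2 called (25% against 5.05% of all tested genes), and without WT replicate 2 there was 1 called (12.5% against 6.21%). Of 11 adipocyte markers 3 were tested and none called (1 without WT replicate 2, 33.3% against 6.21% of all tested genes), and the defining genes Adipoq, Plin1 and Lep were at or near 0, at most 0.571 CPM, while Fabp4, also made by endothelium, had 61.2 to 120.4 CPM. Mitochondrially encoded genes took 37.3%, 29.1% and 29.8% of the counts in WT replicates 1 to 3 and 40.3%, 38.2% and 35.4% in the KO replicates. The part of these differences in the values of the 10 genes was not tested.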

How the data were processed

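Total RNA from TA muscle of 3 WT and 3 KO mice was sequenced with paired-end reads. The authors aligned the reads with HISAT2, counted them per gene with featureCounts and deposited raw counts, without normalization, with a length for each gene. The study's methods name GRCm38 and the submitters' processing notes GRCm39, so positions in the count table were used only to find genes that share exonic bases. Ensembl identifiers gave a symbol for 52083 of 55416 genes. The WT column without a number was read as replicate 1, since the other WT columns are numbered 2 and 3.

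Genes were kept with filterByExpr, scaled by TMM and compared with edgeR's quasi-likelihood test with robust estimation (version 4.0.16, R 4.3.3), with Benjamini-Hochberg adjustment over all 15623 tested genes. Log2 CPM used a prior count of 1, and TPM came from counts and lengths. The steps were tested on simulated data. Alternatives were DESeq2 (version 1.42.0), its size factors, library totals only, no mitochondrially encoded genes, no filter, 10 counts in every library, robust estimation off, the replicate number as a block, and each library left out; their counts and medians for single lists were added after seeing the data. An exact permutation test of 3 against 3 cannot give a p under 0.1. Counting intervals do not cover PCR duplicates.

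The genes and lists were chosen with earlier results of these data known, and the 4 motifs and the promoters shown after the values were seen. Named were the 10 genes, Selenow, called genes of each list or else the gene with the smallest p, 13 genes fixed by name, and the 5 genes with a mean count of at least 50 nearest to the mean profile. Called cell type markers, most abundant or defining markers, Arrdc2, Glul, Spidr and Gm45774 lie outside this rule and were named after their values were seen.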

Additional observations from a re-analysis of the deposited data

How the results depend on the processing

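No pairing of the mice by replicate number is stated in the sources used here. Over the tested genes, deviations of same-numbered WT and KO libraries correlated at 0.06, 0.04 and -0.07, and not every library correlated best with its own number. Such correlations cannot exclude a pairing that acts on some genes only. With the replicate block, 2 of the 10 genes were called (Mt1 and Mt2, edgeR adjusted p = 0.0661 and 0.456), 890 of all genes were, edgeR gave 1 gene an adjusted p under 0.05, and the log2 fold changes of Tsc22d3 and Ddit4 turned to 0.0216 and 0.0137. Under this block Cebpd went from -0.485 to -0.0767, Per1 from 0.247 to 0.43 and Pdk4 from 0.0771 to 0.138. The median of the 10 went from -0.143 to -0.0315. With robust estimation off, 2 of the 10 genes were called (Mt1 and Mt2), beside 919 of all tested genes (5.88%). Leaving out 1 library gave 0 to 1 called of the 10, 0 with an adjusted p under 0.05, 814 to 1072 called of all genes, 0 to 242 genes with an adjusted p under 0.05, 2 to 10 called genes in the 7 lists, and a median of the 10 from -0.37 to 0.27.

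Called genes in all numbered 836, and 1780 without a filter, 1792 with library totals only and 1545 at any fold change. Adjusted p under 0.05, 0 with edgeR, was reached by 4 genes with 10 counts in every library, 45 with DESeq2, 363 without a filter and 55 with library totals only. Called genes in the 7 lists went from 4 of 115 to 7 of 118 without a filter, 5.93% against 5.6% of all genes. With library totals only they were 10 of 115, 8.7% against 11.5% of all genes. Library totals moved the median of all tested genes by -0.25, raised the share of lower genes among called ones from 58.7% to 95.5%, and turned Pdk4 to -0.16, Ucp3 to -0.0545 and Per1 to -0.0461; relative to the median of all genes these were 0.09, 0.20 and 0.20.

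Over single libraries left out, log2 fold changes ran from -0.24 to 0.25 for Tsc22d3, -0.14 to 0.44 for Pdk4, -0.00961 to 0.36 for Ucp3, -0.55 to 0.26 for Angptl4, -0.92 to 0.66 for Cebpd, -0.16 to 0.58 for Per1 and -0.49 to 0.56 for Ddit4. Fkbp5 ran from -1.07 to -0.32, Mt1 from -2.02 to -0.59 and Mt2 from -2.53 to -0.72. Of 140 values, 14 alternatives for each of the 10 genes, 118 kept direction and side of the call rule, 17 turned direction and 5 gained a call. The causes were not tested. The smallest count in a library was 29 for Angptl4 and lay between 62 and 75 for Ddit4, Cebpd, Mt2 and Mt1, whose counting intervals overlap.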
